A study of Saccharomyces cerevisiae with 12 samples.

Results

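The large ribosomal subunit of budding yeast is built from ribosomal RNA and a set of proteins encoded by genes named RPL with a number, together with RPP0, RPP1A, RPP1B, RPP2A and RPP2B, which encode the proteins of the ribosomal stalk. All features of the deposited expression table with such a yeast standard name were taken. They were 81 of 7126 features, and genes of the mitochondrial ribosome (MRPL) were left out. The 81 genes belong to 46 protein families, of which 35 are encoded by an A and a B copy and 11 by a single gene. Introns were annotated in 53 of them and none in the other 28. The choice used names and no measured value.

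RNA of Saccharomyces cerevisiae was sequenced after removal of ribosomal RNA, with 3 samples in each of 4 groups, and the deposited values are RPKM, reads per kilobase of feature and per mega of reads. R288D cells lacked chromosomal SAC3 and carried the plasmid pRS315 with Sac3 R288D. The sac3∆ cells carried the empty pRS315 vector in the same deletion. The cdk8∆ cells lacked CDK8 (listed under its other name, SSN3), carried the empty vector and kept their own SAC3. WT cells were sac3∆ cells with a plasmid copy, pRS315 13MYC-SAC3, so that WT, R288D and sac3∆ share the chromosomal deletion and cdk8∆ does not. All cells were untreated and grew in synthetic medium without leucine. Sac3 is the scaffold of TREX-2, a complex at the nuclear pore that takes part in transcription and mRNA export, and Cdk8 is the kinase of the Mediator complex. The series compared them because TREX-2 was studied as a partner of Mediator.

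The deleted genes read as labelled. SAC3 stood at 62.5 to 64.9 RPKM in R288D, 0.015 to 0.093 RPKM in sac3∆, 33.1 to 33.8 RPKM in cdk8∆ and 48.9 to 53.5 RPKM in WT samples. SSN3 stood at 0.121 to 0.284 RPKM in cdk8∆ samples and 49.7 to 49.8 RPKM in WT samples. The spacing of low RPKM values gave library sizes of 16.2 to 22.4 M reads (M being mega). The scale of the deposited values relative to those reads was 0.967 to 0.991 in R288D, 0.969 to 0.999 in sac3∆, 1.14 to 1.18 in cdk8∆ and 0.864 to 0.892 in WT samples, so the authors' scaling differed by group. The labels do not say that the 3 samples of a group came from separate cultures, so p-values measure the spread between these samples, which may be technical. RPKM are relative to the reads of a sample, so levels here are relative and amounts per cell were not measured. Less RNA per cell, a smaller share of cells that make it and more RNA of other genes cannot be told apart in such bulk samples.

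As background, yeast cells spend a large part of their transcription on ribosomes, and the genes for ribosomal proteins are switched up and down together with nutrients and stress. Rap1 binds upstream of most of them, and Fhl1, Ifh1 and Sfp1 act there, with Ifh1 as the coactivator that is released when growth slows and Crf1 as its competitor for Fhl1. Many of the proteins have an A and a B gene, left by an ancient genome duplication. Proteins that are made without their partners are degraded, and some are carried by dedicated chaperones until they join the assembling subunit.

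The letters of a Rap1 site were found upstream of most of these genes, and a few stretches are shown. The RPL9, RPL15 and RPL22 pairs were chosen because their A to B ratios lay furthest from WT, RPL9 in R288D and sac3∆ and the other pairs in cdk8∆, and RPL30, RPP2A and RPL28 as further examples of the letters. The search covered 500 to 51 bases before the start codon, on both strands, for ACCCNNACA and ANCCNTACA. The second form was added after the first had been searched, and the forms overlap where both match. At least 1 of the forms was present upstream of 51 of the 81 genes (63.0%), compared with 8.87% of 6000 protein-coding promoters of the same length. For ACCCNNACA alone the counts were 36 genes (44.4%) and 5.17% of promoters, and for ANCCNTACA 40 genes (49.4%) and 5.68% of promoters. A match is a description of letters, not of binding. The sequences are from the RefSeq R64 assembly, read 5′ to 3′ on the gene's strand, with Rap1 letters in capitals.
RPL22A, chrXII:262947-262995, + strand: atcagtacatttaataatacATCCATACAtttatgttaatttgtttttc
RPL22B, chrVI:65149-65197, - strand: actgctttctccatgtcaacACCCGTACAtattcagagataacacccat
RPL30, chrVII:438740-438788, + strand: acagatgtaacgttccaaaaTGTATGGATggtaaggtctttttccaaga
RPP2A, chrXV:253960-254008, + strand: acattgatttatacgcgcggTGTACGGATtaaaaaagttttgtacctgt
RPL28, chrVII:310683-310731, + strand: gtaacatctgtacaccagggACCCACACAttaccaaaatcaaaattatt

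For the RPL9 and RPL15 pairs the 300 bases that end 51 bases before the start codon are given, since the A copies held Rap1 letters and the B copies held none in the searched window. Capitals mark Rap1 letters and, in addition, AAAATTT or its reverse complement, the core of a promoter element named RRPE (ribosomal RNA processing element).
RPL9A, chrVII:228380-228679, - strand: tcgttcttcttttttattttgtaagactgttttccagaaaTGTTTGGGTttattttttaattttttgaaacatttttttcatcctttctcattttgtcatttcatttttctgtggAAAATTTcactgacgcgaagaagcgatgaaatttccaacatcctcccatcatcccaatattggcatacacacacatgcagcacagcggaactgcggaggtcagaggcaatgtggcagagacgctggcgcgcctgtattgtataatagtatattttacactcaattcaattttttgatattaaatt
RPL9B, chrXIV:499331-499630, + strand: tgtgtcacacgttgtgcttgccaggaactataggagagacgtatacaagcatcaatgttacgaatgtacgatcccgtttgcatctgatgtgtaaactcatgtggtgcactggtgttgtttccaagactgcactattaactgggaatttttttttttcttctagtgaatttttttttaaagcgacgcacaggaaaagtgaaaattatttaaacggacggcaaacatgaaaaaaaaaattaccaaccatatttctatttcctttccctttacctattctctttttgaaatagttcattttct
RPL15A, chrXII:202641-202940, - strand: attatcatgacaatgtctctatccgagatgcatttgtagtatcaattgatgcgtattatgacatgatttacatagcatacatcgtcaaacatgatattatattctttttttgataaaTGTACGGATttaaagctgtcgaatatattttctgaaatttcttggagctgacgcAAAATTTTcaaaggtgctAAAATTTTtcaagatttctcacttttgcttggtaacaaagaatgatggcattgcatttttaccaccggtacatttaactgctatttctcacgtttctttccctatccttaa
RPL15B, chrXIII:510399-510698, - strand: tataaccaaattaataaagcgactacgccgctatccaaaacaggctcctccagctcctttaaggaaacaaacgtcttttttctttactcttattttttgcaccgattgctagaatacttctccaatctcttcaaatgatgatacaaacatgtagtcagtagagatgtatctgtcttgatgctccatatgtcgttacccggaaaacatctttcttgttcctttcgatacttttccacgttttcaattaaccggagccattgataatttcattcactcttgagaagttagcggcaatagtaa

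Other letters were less particular to these promoters. RRPE letters stood upstream of 41 of the 81 genes (50.6%), compared with 32% of all promoters. PAC letters (GATGAG, named for polymerase A and C promoters) stood upstream of 18 genes (22.2%), compared with 27.1%. The letters ACCCTAA, searched for Tbf1, were in no window of the 81 genes and in 3.72% of all windows.

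The genes ranged widely in level. RPL3, whose protein lies near the peptidyl transferase centre, had the highest mean level, with 3271, 3094 and 3375 RPKM in R288D samples, 3198, 3365 and 2991 RPKM in sac3∆ samples, 3774, 3566 and 3619 RPKM in cdk8∆ samples and 5677, 5252 and 5199 RPKM in WT samples. RPL10, RPL32, RPP2B and RPP0 followed it. RPL15B had the lowest level, at 46.0, 37.0 and 45.2 RPKM in R288D, 47.7, 47.9 and 46.3 RPKM in sac3∆, 64, 60.8 and 66.4 RPKM in cdk8∆ and 58.7, 57.3 and 61.0 RPKM in WT samples. The other genes at the low end were RPL7B, RPL35B, RPL22B and RPL18B, each the B copy of a pair. RPL3 was thus lower in every mutant sample than in every WT sample, whereas RPL15B was lower in R288D and sac3∆ samples and its cdk8∆ and WT samples overlapped.

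Transcripts of the large-subunit protein genes were lower in R288D and sac3∆ cells than in WT cells, nearly without exception and by a similar factor. Summed over the 81 genes, the level was 83002 ± 6933 RPKM in R288D and 131629 ± 7196 RPKM in WT samples (SD, n = 3 each), or 63.1% of WT. In sac3∆ samples the sum was 82247 ± 4704 RPKM (SD, n = 3), or 62.5% of WT. With limma on log2(RPKM + 1), the median log2 change was -0.69 in R288D and -0.72 in sac3∆ cells, which are 0.620 and 0.608 of the WT level. The medians over all 6124 tested features were 0.02 and 0.04. Both comparisons share the WT samples.

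All 81 genes passed the filter on low values, a 12-sample mean of 1 RPKM or more. In R288D against WT, 79 genes were called lower at an adjusted p under 0.05 (limma, Benjamini-Hochberg over all tested features) and none higher, while 24.4% of all tested features were called lower and 26.3% higher. In sac3∆ against WT the counts were also 79 lower and none higher, with 24.1% of all features called lower and 27.4% higher. All 3 mutant values lay below all 3 WT values for 79 genes in R288D (26.2% of all tested features did so) and for 79 genes in sac3∆ (27.4% of all). RPL39 and RPL41B were the exceptions in each of them.

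In cdk8∆ cells the genes were also lower on the authors' scale, but this direction depended on that scale. The summed level was 86761 ± 1972 RPKM (SD, n = 3) against 131629 ± 7196 RPKM in WT samples, or 65.9%. The median log2 change was -0.61 on the authors' scale, with 0.01 over all features, but it was 0.04 after quantile normalization. On the authors' scale 79 genes were called lower and none higher, where 30.6% of all features were called lower and 31.5% higher. All 3 cdk8∆ values lay below all 3 WT values for 80 genes (35.9% of all features), RPL15B being the exception.

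Quantile normalization, which gives every sample the same distribution of values, left 10 genes called lower in cdk8∆ (28.1% of all features were) and 7 called higher (29.6% of all). Rescaling to the reads recovered from the RPKM steps left 60 called lower (11.1% of all features were) and 1 higher (66.5% of all), with a median of -0.23. The same rescaling moved the median of all tested features to 0.38 in cdk8∆, to 0.16 in R288D and to 0.19 in sac3∆. Relative to that shift the median of the large-subunit protein genes was -0.61 in cdk8∆, -0.70 in R288D and -0.75 in sac3∆. In R288D the genes called lower numbered 63 after quantile normalization (22.1% of all features were) and 78 after rescaling (13.5% of all), with medians of -0.26 and -0.54. In sac3∆ they numbered 68 (23.9% of all) and 76 (13.8% of all), with medians of -0.30 and -0.55.

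**Figure D1:**
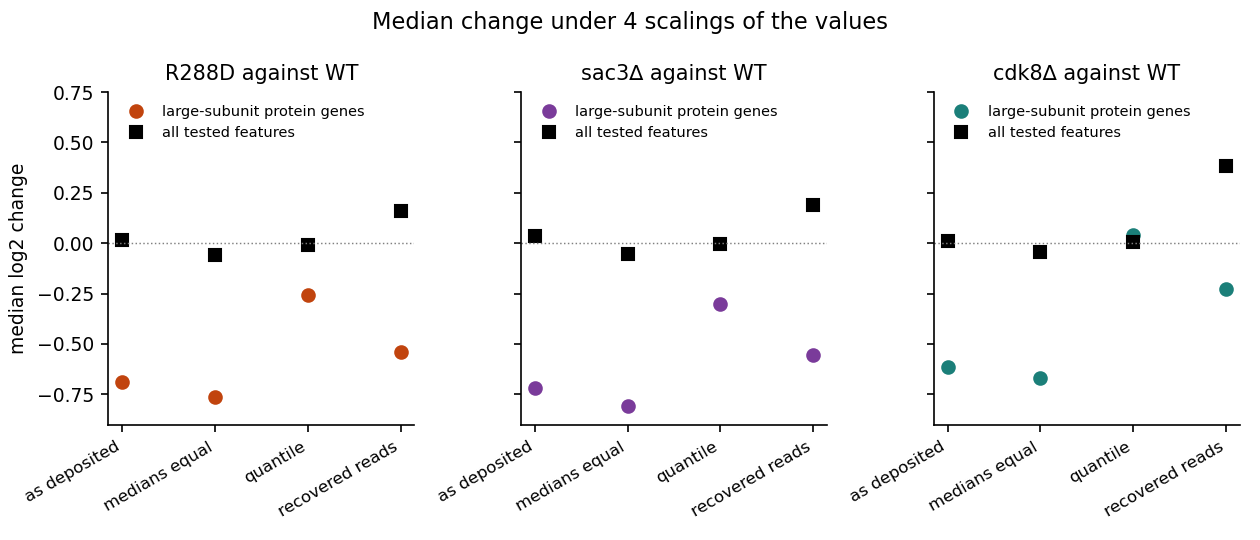
Median log2 change (y axis) of the 81 large-subunit protein genes (circles) and of all 6124 tested features (squares) under 4 scalings of the values (x axis), for R288D, sac3∆ and cdk8∆ against WT. The circles lie below zero under each scaling in R288D and sac3∆, while in cdk8∆ the circle stands at 0.04 after quantile normalization.

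The level of other abundant transcripts differed between the mutants. The 220 features outside the ribosomal protein genes with a mean of at least 500 RPKM were a group chosen after the data were seen. Of them 99 were called lower in R288D (45.0%), 93 in sac3∆ (42.3%) and 159 in cdk8∆ (72.3%). Over all tested features the shares were 24.4%, 24.1% and 30.6%. Called higher were 25, 20 and 4 of the 220, with 26.3%, 27.4% and 31.5% of all features. Their median log2 change was -0.23 in R288D, -0.14 in sac3∆ and -0.61 in cdk8∆ on the authors' scale, the last value being that of the large-subunit protein genes in cdk8∆. Its part in the result was not tested. The 56 RPS genes of the small subunit had medians of -0.74 in R288D, -0.74 in sac3∆ and -0.65 in cdk8∆. The 34 MRPL genes, whose products work in mitochondria, had medians of 0.10, 0.14 and -0.10 in R288D, sac3∆ and cdk8∆, the last being 0.28 on the scale of recovered reads.

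**Figure D2:**
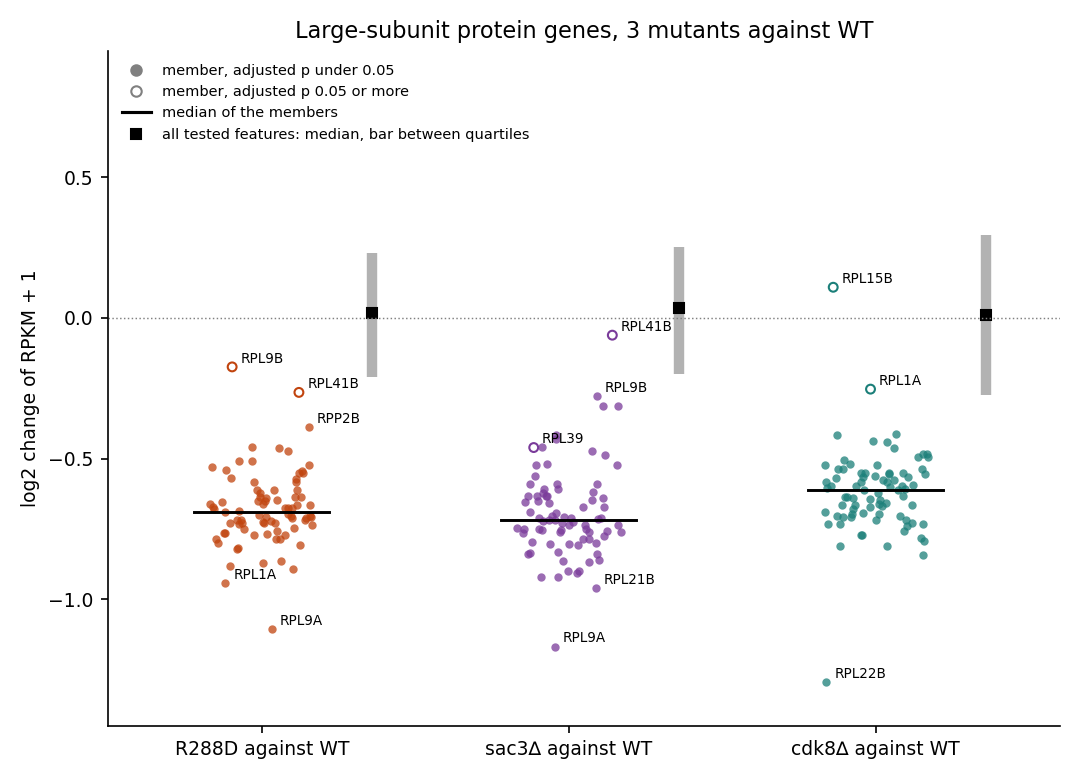
log2 change of RPKM + 1 (y axis) of each large-subunit protein gene in R288D, sac3∆ and cdk8∆ against WT, on the authors' scale. Filled points have an adjusted p under 0.05, lines are medians (-0.69, -0.72 and -0.61), and squares with bars are the median and quartiles of all tested features; the cdk8∆ median is 0.04 after quantile normalization.

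The genes moved as a block, with a few that stood apart. The log2 changes had an SD of 0.14 in R288D, 0.17 in sac3∆ and 0.15 in cdk8∆ over the 81 genes, where the median SE of a single change was 0.08. Within 0.15 of the median lay 65 genes in R288D, 59 in sac3∆ and 66 in cdk8∆. Genes with an intron had medians of -0.69, -0.72 and -0.65 in R288D, sac3∆ and cdk8∆, and genes without one had -0.69, -0.68 and -0.57. Genes with Rap1 letters had medians of -0.71, -0.72 and -0.61, and those without them -0.66, -0.71 and -0.60. Across the 81 genes, which share libraries and normalization, the change had a Pearson r with the log2 mean level of -0.05 in R288D, -0.03 in sac3∆ and 0.11 in cdk8∆, and with the log2 exon length of -0.18, -0.33 and 0.07. The cdk8∆ values of these groups are on the authors' scale.

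The stalk of the large subunit, which recruits translation factors, is built from P0, from P1 and P2 proteins with an A and a B gene each, and from the protein of RPL12A and RPL12B at its base. All 7 genes were called lower in each mutant on the authors' scale, where 79 of the 81 genes were. Of all features 24.4%, 24.1% and 30.6% were called lower in R288D, sac3∆ and cdk8∆. With limma after quantile normalization, however, 0 of the 7 were called in cdk8∆ and 0 had an unadjusted p under 0.05. After that normalization 28.1% of all features were called lower in cdk8∆ and 29.6% higher. RPP0 had 2393, 2160 and 2298 RPKM in R288D, 2213, 2351 and 2132 RPKM in sac3∆, 2660, 2498 and 2600 RPKM in cdk8∆ and 4003, 3719 and 3646 RPKM in WT samples. No mutant value of RPP0 reached the WT range. Its log2 change was -0.73 in R288D, -0.76 in sac3∆ and -0.55 in cdk8∆ (0.05 after quantile normalization).

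The log2 changes of RPP1A, RPP1B and RPP2B in the SAC3 mutants were nearer to 0 than that of RPP0, and that of RPP2A was close to it. RPP2B had 2989, 2732 and 2741 RPKM in R288D, 3021, 3165 and 2725 RPKM in sac3∆, 2441, 2454 and 2406 RPKM in cdk8∆ and 3968, 3461 and 3649 RPKM in WT samples. Its lowest values were those of cdk8∆. The log2 changes of RPP2B were -0.39, -0.31 and -0.60 in R288D, sac3∆ and cdk8∆ (the last 0.02 after quantile normalization), and those of its partner RPP2A were -0.72, -0.75 and -0.52. RPP2A had 1554, 1358 and 1564 RPKM in R288D, 1495, 1580 and 1301 RPKM in sac3∆, 1750, 1655 and 1710 RPKM in cdk8∆ and 2585, 2370 and 2406 RPKM in WT samples, so its lowest values were those of the SAC3 mutants. RPP1A stood at -0.46, -0.42 and -0.48, and RPP1B at -0.51, -0.43 and -0.68. In sac3∆ after quantile normalization RPP1A and RPP1B stood at 0.01 and 0.03, and in cdk8∆ at 0.12 and 0.01. RPL12A and RPL12B lay close to the common change, at -0.68 and -0.70 in R288D and -0.76 and -0.73 in sac3∆.

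Rpl5 and Rpl11 bind 5S ribosomal RNA and enter the subunit with it as one particle. RPL5 had 1978, 1830 and 2026 RPKM in R288D, 1828, 1901 and 1747 RPKM in sac3∆, 2141, 1976 and 2076 RPKM in cdk8∆ and 3220, 3097 and 2973 RPKM in WT samples, and no mutant sample overlapped WT. Its log2 changes were -0.67, -0.76 and -0.58 on the authors' scale, the last being 0.03 after quantile normalization. RPL11A changed by -0.65, -0.59 and -0.54 and RPL11B by -0.55, -0.49 and -0.84. The coding sequences of RPL11A and RPL11B are 97.0% identical, so the split of reads between them is uncertain.

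Of the 16 genes for proteins at the exit of the peptide tunnel, 16 were called lower in R288D, 15 in sac3∆ and 16 in cdk8∆. These counts are on the authors' scale, where 79 of the 81 genes were called lower in each mutant. Of all features 24.4%, 24.1% and 30.6% were. RPL39, which encodes a very small protein of the tunnel wall, was the one of the 16 not called in sac3∆. It had 2714, 1870 and 2032 RPKM in R288D, 1761, 2937 and 2580 RPKM in sac3∆, 2230, 2412 and 2265 RPKM in cdk8∆ and 3745, 2658 and 3498 RPKM in WT samples. The groups overlapped for R288D and sac3∆, and the log2 changes were -0.58 ± 0.19 (SE, adjusted p = 0.0237), -0.46 ± 0.19 (adjusted p = 0.0627) and -0.50 ± 0.19 (adjusted p = 0.0373, limma) in R288D, sac3∆ and cdk8∆. RPL41B, for the shortest protein of the subunit, also varied between samples, with 784, 673 and 596 RPKM in R288D, 578, 901 and 922 RPKM in sac3∆, 483, 566 and 598 RPKM in cdk8∆ and 954, 747 and 766 RPKM in WT samples. Its log2 change was -0.26 in R288D and -0.06 in sac3∆, neither called, and -0.58 in cdk8∆ (adjusted p = 0.0117, limma), which was 0.08 after quantile normalization.

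All 13 genes listed for proteins that join the subunit late, in the cytoplasm, were called lower in each mutant on the authors' scale. Their medians were -0.71 in R288D, -0.72 in sac3∆ and -0.64 in cdk8∆. On that scale 79 of the 81 genes were called lower in each mutant, and 24.4%, 24.1% and 30.6% of all features. RPL10, whose protein completes the subunit, had 2797, 2504 and 2890 RPKM in R288D, 2532, 2736 and 2537 RPKM in sac3∆, 3072, 2844 and 2924 RPKM in cdk8∆ and 4194, 3894 and 3690 RPKM in WT samples. It was among the 4 least changed genes in cdk8∆, at -0.41 there (0.13 after quantile normalization), -0.52 in R288D and -0.59 in sac3∆. RPL40B, which encodes a ubiquitin fusion, was among the most changed in the SAC3 mutants, at -0.87 in R288D and -0.91 in sac3∆, with -0.65 in cdk8∆ (0.08 after quantile normalization).

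The RPL9 pair split in R288D and sac3∆ cells. RPL9A and RPL9B encode near-identical proteins beside the factor-binding region of the subunit. RPL9A had 744, 717 and 771 RPKM in R288D, 692, 750 and 696 RPKM in sac3∆, 1104, 1012 and 1071 RPKM in cdk8∆ and 1696, 1572 and 1543 RPKM in WT samples. RPL9B had 467, 418 and 470 RPKM in R288D, 411, 449 and 401 RPKM in sac3∆, 318, 293 and 309 RPKM in cdk8∆ and 546, 511 and 473 RPKM in WT samples. For RPL9A the R288D and sac3∆ samples were the lowest, and for RPL9B the cdk8∆ samples were.

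RPL9A had the most negative log2 change of all 81 genes in R288D (-1.11 ± 0.06, SE, adjusted p = 6.82e-08) and in sac3∆ (-1.17 ± 0.06, adjusted p = 4.32e-08, limma), and RPL9B one of the least negative (-0.17 ± 0.07, adjusted p = 0.0509, and -0.28 ± 0.07, adjusted p = 0.00487). The direction of RPL9B in R288D was not stable, at 0.10 after quantile normalization. In cdk8∆ the changes were -0.59 for RPL9A (0.10 after quantile normalization) and -0.73 for RPL9B. RPL9A supplied 62.2% ± 0.9 of the summed RPKM of the pair in R288D, 62.9% ± 0.5 in sac3∆, 77.6% ± 0.04 in cdk8∆ and 75.9% ± 0.6 in WT samples (SD, n = 3 each). The share is a ratio within a sample, which no rescaling of whole samples alters. The coding sequences are 93.8% identical, and 14.0% of the 50-base windows of RPL9A also occur in RPL9B.

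**Figure D3:**
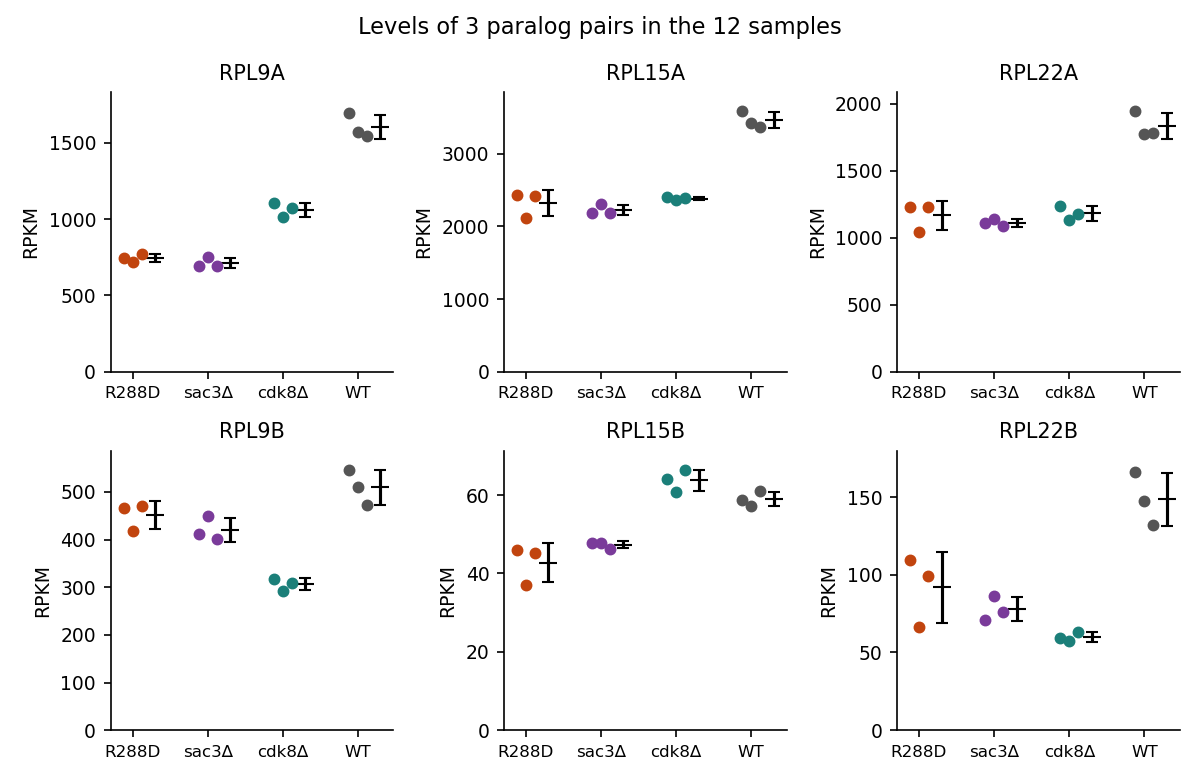
RPKM (y axis, starting at 0) of RPL9A, RPL9B, RPL15A, RPL15B, RPL22A and RPL22B in R288D, sac3∆, cdk8∆ and WT samples, with points for the 3 samples and bars for mean ± SD. RPL9A is lowest in R288D and sac3∆ and RPL9B in cdk8∆; RPL15B in cdk8∆ overlaps WT, and RPL22B averages 59.8 RPKM in cdk8∆ and 149 RPKM in WT.

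RPL15 and RPL22 were the pairs that shifted furthest in cdk8∆ cells. RPL15A had 2428, 2113 and 2417 RPKM in R288D, 2191, 2305 and 2180 RPKM in sac3∆, 2400, 2366 and 2390 RPKM in cdk8∆ and 3595, 3432 and 3373 RPKM in WT samples, all mutant samples being below WT. Its weakly expressed copy RPL15B was at 0.11 ± 0.07 in cdk8∆ (SE, adjusted p = 0.211, limma), the only positive change on the authors' scale, and was called lower in R288D (-0.46, adjusted p = 0.000256) and sac3∆ (-0.31, adjusted p = 0.00351). The log2 ratio of RPL15A to RPL15B differed from WT by -0.65 in cdk8∆, -0.33 in sac3∆ and -0.12 in R288D.

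RPL22B, for a tunnel-exit protein whose copies are 78.9% identical in coding sequence, had 110, 66.4 and 99.4 RPKM in R288D, 71.1, 86.6 and 76.1 RPKM in sac3∆, 59.0, 57.1 and 63.2 RPKM in cdk8∆ and 166, 148 and 132 RPKM in WT samples. The cdk8∆ samples were the lowest. Its log2 change there was -1.29 ± 0.15 (SE, adjusted p = 1.79e-05, limma), the most negative of the 81 genes in cdk8∆, and it stayed negative under every scaling, with -1.16 after quantile normalization. It was -0.71 in R288D and -0.92 in sac3∆. RPL22A changed by -0.66, -0.72 and -0.63 in R288D, sac3∆ and cdk8∆, the last being 0.04 after quantile normalization. The log2 ratio of RPL22A to RPL22B was 4.28 ± 0.09 in cdk8∆ and 3.62 ± 0.11 in WT samples (SD, n = 3 each), a difference of 0.66.

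Over all 35 pairs most shifts in the balance of A and B copies were small. The difference of the mean log2 ratio from WT had a median size of 0.11 in R288D, 0.11 in sac3∆ and 0.12 in cdk8∆. It was at least 0.2 in 8, 8 and 9 pairs. The ratios of mutant and WT samples did not overlap in 21 pairs in R288D, 19 in sac3∆ and 24 in cdk8∆. Such ratios have no counterpart over all features, so no background share stands beside these counts. An exact two-sided permutation test of 3 against 3 samples cannot give a p below 0.1, so no pair could pass on its own. Next to RPL9, the pairs that moved most toward the B copy in the SAC3 mutants were RPL41 (-0.46 in R288D and -0.56 in sac3∆) and RPP2 (-0.33 and -0.44), and toward the A copy RPL21 (0.23 and 0.21) and RPL43 (0.22 and 0.25).

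In cdk8∆ the same ratio moved by 0.14 in RPL9, 0.12 in RPL41, 0.08 in RPP2, -0.03 in RPL21 and -0.28 in RPL43. Toward the A copy in cdk8∆ moved RPL4 (0.32), RPL11 (0.30), RPL7 (0.29) and RPL1 (0.28), pairs with coding identities of 98.9%, 97.0%, 96.7% and 99.4%. Between 56.85% and 81.0% of the 50-base windows of their A copies recur in the B copy, and how such reads were assigned is not given in the sources used here, so the split within these pairs is uncertain. The same holds for RPL41, with an identity of 98.7%. RPL7A and RPL7B also overlap small nucleolar RNA genes in their introns. RPL1A was the second gene not called in cdk8∆, with 417, 423 and 399 RPKM there and 528, 446 and 506 RPKM in WT samples, a log2 change of -0.25 (adjusted p = 0.0754, limma), and it was at -0.94 in R288D and -0.83 in sac3∆.

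**Figure D4:**
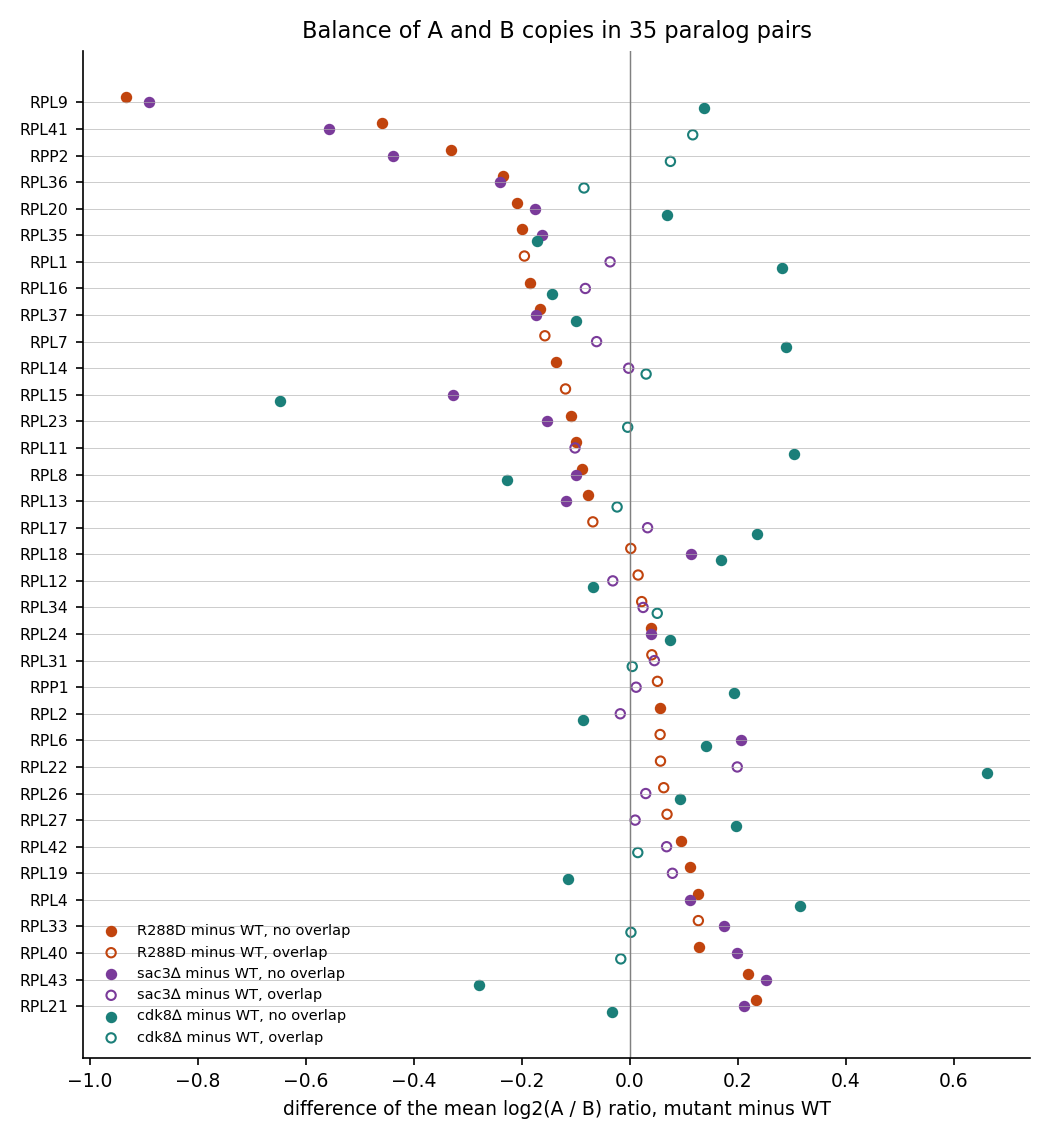
Difference of the mean log2(A / B) ratio from WT (x axis) for each of the 35 paralog pairs (y axis) in R288D, sac3∆ and cdk8∆. A and B are RPKM + 1, and points are filled where the 3 mutant and 3 WT ratios do not overlap. RPL9 lies at -0.93 and -0.89 in R288D and sac3∆, while RPL15 (-0.65) and RPL22 (0.66) are the extremes in cdk8∆.

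Further genes lay at the negative end of the range. After RPL9A and RPL1A the most negative changes in R288D were those of RPL43B (-0.89), RPL21B (-0.88), RPL16A (-0.87), RPL40B (-0.87), RPL20A (-0.82) and RPL8A (-0.82). In sac3∆ they were RPL21B (-0.96), RPL22B (-0.92), RPL18B (-0.92), RPL40B (-0.91), RPL8A (-0.90), RPL33B (-0.90) and RPL13A (-0.87). In cdk8∆, on the authors' scale, RPL22B was followed by RPL11B (-0.84), RPL8A (-0.81), RPL34B (-0.81), RPL27B (-0.79), RPL18B (-0.78), RPL20B (-0.77) and RPL7B (-0.77). All of these were called lower in all 3 mutants except RPL1A in cdk8∆.

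R288D and sac3∆ samples were set against each other to ask whether the point mutant differed from the deletion. With limma none of the 81 genes was called, where 1.37% of all tested features were, and 0 of them reached an unadjusted p under 0.05. The log2 differences, R288D minus sac3∆, ran between -0.20 (RPL41B) and 0.21 (RPL22B) with a median of 0.03, against a median SE of 0.08, so differences smaller than about this range were not resolved. One R288D sample, replicate 2, had the lowest summed level of the 12, at 75375 RPKM, where the other R288D samples had 88921 and 84712 RPKM. Without it 78 genes were called lower in R288D against WT, with a median of -0.61, 1 gene was called in R288D against sac3∆, and the count over all features in that comparison was 468 in place of 84.

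Both SAC3 mutants were then set against cdk8∆. In sac3∆ against cdk8∆, 24 genes were called lower and 5 higher, compared with 31.2% and 32.9% of all features, so on the authors' scale the shares of these genes did not exceed the background. In R288D against cdk8∆, 18 were called lower and 4 higher, compared with 31.4% and 32.3% of all features. RPL1A (-0.58), RPL9A (-0.58), RPL15B (-0.42), RPL43B (-0.42) and RPL21B (-0.35) were the lowest in sac3∆ relative to cdk8∆, and RPL1A (-0.69), RPL15B (-0.57), RPL9A (-0.51), RPL43B (-0.45) and RPL2B (-0.28) in R288D. Higher in sac3∆ than in cdk8∆ were RPL41B (0.52), RPL9B (0.45), RPL11B (0.35), RPP2B (0.28) and RPP1B (0.25), and in R288D RPL22B (0.58), RPL9B (0.56), RPL11B (0.29) and RPP2B (0.21). RPP2B was -0.02 in each of them after quantile normalization. The changes of RPP1B against WT were then nearly equal in sac3∆ and cdk8∆. The RPL41B samples of sac3∆ and cdk8∆ overlapped, and the SE of its difference was 0.17. The reading of the counts also depended on the scale. In sac3∆ against cdk8∆, 60 genes were called lower after quantile normalization (34.4% of all features were) and 63 on recovered reads (51.1% of all). In R288D against cdk8∆ the counts were 59 (34.8% of all) and 62 (51.8% of all), so on both scales the shares of these genes were above the background.

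Genes listed as regulators of ribosomal protein genes were called more often higher than lower in the SAC3 mutants, and in cdk8∆ more often lower on the authors' scale. The list holds the coactivator IFH1 as well as its competitor CRF1, so the counts give no direction of regulation. Of 21 such genes, 12 were called higher and 4 lower in R288D (57.1% and 19.0%, with 26.3% and 24.4% of all features). In sac3∆ 10 were called higher and 4 lower (47.6% and 19.0%, with 27.4% and 24.1% of all). In cdk8∆ 1 was called higher and 11 lower (4.76% and 52.4%, with 31.5% and 30.6% of all). On recovered reads 12 were called higher and 1 lower in cdk8∆, where 66.5% of all features were called higher, and their median minus that of all features was -0.21, against -0.22 on the authors' scale. Set against cdk8∆ directly on the authors' scale, 14 were called higher and 2 lower in R288D (66.7% and 9.52%, with 32.3% and 31.4% of all features). In sac3∆ 12 were called higher and 2 lower (57.1% and 9.52%, with 32.9% and 31.2% of all). IFH1, the coactivator, had 98.0, 84.3 and 88.6 RPKM in R288D, 101, 90.3 and 87.1 RPKM in sac3∆, 18.8, 18.4 and 18 RPKM in cdk8∆ and 27.1, 28.3 and 25.4 RPKM in WT samples. No group overlapped WT, with R288D and sac3∆ above it and cdk8∆ below. The log2 changes were 1.71 ± 0.07, 1.75 ± 0.07 and -0.52 ± 0.07 (SE, adjusted p = 7.95e-09, 6.4e-09 and 4.2e-05, limma), and each kept its sign under every scaling, though IFH1 in cdk8∆ was not called on recovered reads (-0.15).

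Its competitor CRF1 had 12.3, 15.9 and 12.7 RPKM in R288D, 12.6, 11.2 and 10.9 RPKM in sac3∆, 25, 24.2 and 25.7 RPKM in cdk8∆ and 5.85, 6.79 and 7.44 RPKM in WT samples, and was called higher in all 3 mutants. Its log2 change was 0.93 in R288D, 0.71 in sac3∆ and 1.76 in cdk8∆, positive under every scaling. SFP1, a nutrient-responsive activator, rose by 0.59 in R288D and 0.61 in sac3∆ and was at -0.03 in cdk8∆ (not called, but called higher on recovered reads, at 0.35). FHL1, the forkhead protein that Ifh1 binds, rose by 0.45 and 0.42 and was at -0.07 in cdk8∆ (not called, but called lower after quantile normalization, at -0.30, and higher on recovered reads, at 0.29). RAP1 was at 0.27, 0.21 and -0.30, the last being 0.07 and not called on the scale of recovered reads. In sac3∆ RAP1 was not called after quantile normalization or when the sample medians were set equal. HMO1, a high-mobility-group protein found at these promoters, was called lower in all 3, at -0.30, -0.19 and -0.23, but was above zero after quantile normalization in sac3∆ (0.03) and cdk8∆ (0.10), and on recovered reads in cdk8∆ (0.15). HMO1 was called in none of the 3 after quantile normalization, nor in sac3∆ on recovered reads. Besides HMO1, the listed genes called lower in both SAC3 mutants were CKA2 (-0.28 in each), CKB1 (-0.33 and -0.295) and CKB2 (-0.21 and -0.16). Only CKA2 kept its call in both under every scaling. TOD6 was at 0.61, 0.63 and -0.58, all called, the last not on recovered reads. DOT6 was at -0.13, -0.04 and -0.73, of which only the last was called on the authors' scale.

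**Figure D5:**
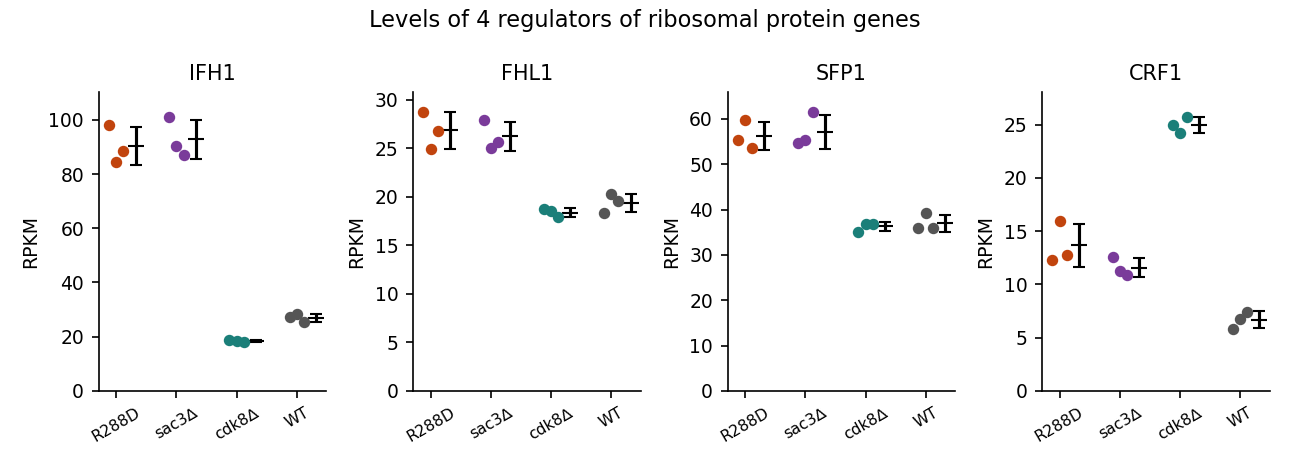
RPKM (y axis, starting at 0) of IFH1, FHL1, SFP1 and CRF1 in R288D, sac3∆, cdk8∆ and WT samples, with points for the 3 samples and bars for mean ± SD. IFH1 averages 90.3 RPKM in R288D, 92.8 RPKM in sac3∆, 18.4 RPKM in cdk8∆ and 26.9 RPKM in WT.

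Factors that assemble the large subunit were mostly called lower in cdk8∆ on the authors' scale, while in the SAC3 mutants their calls were no more frequent than those of all features. Of 63 assembly factors of the large subunit, 14 were called higher and 11 lower in R288D (22.2% and 17.5%, with 26.3% and 24.4% of all features) and 12 higher and 10 lower in sac3∆ (19.0% and 15.9%, with 27.4% and 24.1% of all), with medians of 0.04 and 0.02. In cdk8∆ 2 were called higher and 48 lower (3.17% and 76.2%, with 31.5% and 30.6% of all features), with a median of -0.45. The median was -0.51 after quantile normalization and -0.07 on the scale of recovered reads. On recovered reads 19 were called lower and 9 higher, where 11.1% and 66.5% of all features were. Set against cdk8∆ directly on the authors' scale, 49 were called higher and 1 lower in R288D (77.8% and 1.59%, with 32.3% and 31.4% of all features). The counts in sac3∆ were likewise 49 and 1, with 32.9% and 31.2% of all features. In R288D and sac3∆, LAS1, which cuts the precursor RNA, was at 0.57 and 0.52 and NUG1, a nuclear GTPase of assembly, at -0.43 and -0.49, all called. In cdk8∆, BRX1 was at -0.94, NOP15 at -0.98, CIC1 at -0.84 and REH1 at -0.58, all called and all assembly factors.

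Of 5 dedicated chaperones, 2 were called lower in R288D, 2 in sac3∆ and 5 in cdk8∆ on the authors' scale. Of all features 24.4%, 24.1% and 30.6% were called lower there. On recovered reads 1 was called lower in each mutant, RRB1, where 13.5%, 13.8% and 11.1% of all features were. BCP1 was called higher in cdk8∆ on that scale (0.19), as were 66.5% of all features. The median of the 5 in cdk8∆ was -0.14 on recovered reads and -0.52 on the authors' scale. RRB1, the chaperone of Rpl3, was at 116 ± 13.8 RPKM in R288D, 119 ± 3.8 RPKM in sac3∆, 103 ± 5.4 RPKM in cdk8∆ and 154 ± 8.3 RPKM in WT samples (SD, n = 3 each). It was called lower in all 3, at -0.42, -0.37 and -0.58. On the same authors' scale SQT1, the chaperone of Rpl10, was at -0.23 in R288D (not called), -0.28 in sac3∆ and -0.54 in cdk8∆. ACL4, the chaperone of Rpl4, was at -0.23 in R288D, -0.20 in sac3∆ (not called) and -0.41 in cdk8∆. SYO1, which imports Rpl5 and Rpl11, was called in cdk8∆ (-0.52) and not in R288D (0.12) or sac3∆ (-0.03), and BCP1, the chaperone of Rpl23, in cdk8∆ (-0.19) and not in R288D (-0.07) or sac3∆ (-0.05).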

How the data were processed

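RNA-seq values of 12 samples (4 groups of 3) came as 1 table of RPKM, normalized by the authors before deposit. Per the submitters' processing notes, TopHat2 2.0.9, HTSeq 0.5.4p3, edgeR, limma, R 3.0.1 and genome build R64 were used; which of them gave the deposited RPKM, the read length and the strand setting are not stated there. Of the RPKM values of under 300 reads, 99.1% to 99.5% per sample fell within 0.1 of a whole read once a library size was set, which gave the depths.

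The 6124 features whose 12-sample mean reached 1 RPKM were tested. log2(RPKM + 1) values were fitted with limma 3.58.1 in R 4.3.3, with all 4 groups in 1 fit, 8 residual degrees of freedom, a mean trend and no replicate block. P-values were adjusted by Benjamini-Hochberg over all tested features. Fold changes are on the log2(RPKM + 1) scale, which understates changes of low genes. The fit was tested on simulated data. Paralog ratios are log2 ratios of RPKM + 1 within a sample, while the share of a pair is of RPKM. Coordinates, introns, promoters and coding identity were read from the RefSeq R64 genome and annotation, the build the notes name, where 957 of 7126 features had no match, and a gene there starts at its start codon. Python 3.11.15, pandas 2.3.3, numpy 2.4.6, scipy 1.17.1, Biopython 1.88 and matplotlib 3.10.9 were used.

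The members and lists were chosen with earlier results of these data known. Named are the 8 most negative and 4 most positive members per mutant, those not called lower, the stalk and 5S genes, the 6 pairs that differed most per mutant, the 5 most and 5 least abundant, the 5 called members of largest difference in each direction between mutants, and the assembly factors of lowest adjusted p. The rule also named every regulator and chaperone, but only a part of the regulators is given singly here. Alternatives were other pseudocounts (0.1 and 5), filters (none, 10), scalings and models, and each sample left out.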

Additional observations from a re-analysis of the deposited data

How the results depend on the processing

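The calls in R288D and sac3∆ against WT stayed within 1.5 times of 79 genes under every alternative run. The scaling changed the cdk8∆ results and the comparisons of the SAC3 mutants with cdk8∆. After quantile normalization 10 genes were called lower in cdk8∆, and the median change was 0.0404. Under it 56 of the 81 log2 changes turned positive in cdk8∆ against WT, at 0.0005 to 0.303. Among them were RPL9A 0.103, RPL43B 0.303, RPL21B 0.126, RPL16A 0.0649, RPL40B 0.0821, RPL20A 0.0216, RPP1A 0.121, RPP2B 0.0173, RPL41B 0.0791, RPP2A 0.112, RPL36B 0.138, RPL21A 0.0851, RPL13A 0.0967, RPL39 0.105, RPL15A 0.0703, RPL4A 0.121, RPL10 0.126, RPL22A 0.037, RPL11A 0.0769, RPL7A 0.175, RPL1B 0.0005, RPP0 0.0519, RPP1B 0.0121, RPL12A 0.0067, RPL12B 0.0363, RPL5 0.0296 and RPL2B 0.233. In sac3∆ against WT 4 did so, RPP1A (0.0107), RPP1B (0.0262), RPL37B and RPL41B (up to 0.275), and in R288D against WT 2, RPL9B and RPL41B (up to 0.0951). RPP2B stood at -0.0211 in sac3∆ and -0.0237 in R288D against cdk8∆ under quantile normalization, and at -0.0216 in R288D against cdk8∆ on recovered reads. With quantile normalization and recovered reads, 60 and 63 genes were lower and 2 and 1 higher in sac3∆ against cdk8∆, and 59 and 62 lower and 2 and 2 higher in R288D against cdk8∆. The summed level relative to WT was 72.2% in R288D, 69.9% in sac3∆ and 86.6% in cdk8∆ as a share of all RPKM, and 70.0%, 69.9% and 86.1% on recovered reads. The causes were not tested beyond these scalings.

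With only the groups compared in the fit, 11 genes were lower in R288D against cdk8∆ (18 with all groups), and 17 of all features were called in R288D against sac3∆ (84 with all groups). Leaving out each sample in turn gave 78 to 80 genes lower in R288D, 78 to 80 in sac3∆ and 75 to 80 in cdk8∆ against WT, and 0 to 1 called in R288D against sac3∆. It gave 12 to 28 lower and 3 to 8 higher in sac3∆ against cdk8∆, 7 to 23 lower and 3 to 13 higher in R288D against cdk8∆, and 53 to 468 of all features in R288D against sac3∆. In that last comparison the lowest count of all features came without sac3∆ replicate 1 and the highest without R288D replicate 2. Of all features the same runs called 2730 to 3162 in R288D, 2788 to 3436 in sac3∆ and 3393 to 4031 in cdk8∆ against WT. They called 3513 to 4121 in sac3∆ against cdk8∆ (3924 with every sample) and 3559 to 3991 in R288D against cdk8∆ (3903 with every sample). The lowest counts of lower genes against cdk8∆ came without cdk8∆ replicate 1. The replicate block gave 79, 79 and 78 genes lower in R288D, sac3∆ and cdk8∆. Same-numbered samples did not deviate together, with correlations of -0.29 to 0.16, so the numbers were not taken as pairs. The SE of a log2 change was 0.17 to 0.19 for RPL29, RPL39, RPL41A and RPL41B, against a median of 0.08, and the part of depth in it was not tested.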
